A study of Mus musculus with 24 samples.

Results

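SN-011 is a small molecule antagonist of STING, and the genes described here are the pathway it acts on: the DNA sensor gene Cgas, the adaptor gene Sting1 (also named Tmem173), the kinase genes Tbk1 and Ikbke, the transcription factor gene Irf3, the interferon gene Ifnb1, the type I interferon receptor genes Ifnar1 and Ifnar2, and the receptor kinase genes Jak1 and Tyk2. These 10 genes were taken by name, not by their values, from the 54532 genes of each count table, through the Ensembl identifiers that carry their symbols in GENCODE release M21. RNA-Seq was performed on heart, stomach, muscle and tongue of young Trex1-KO mice, with 3 control and 3 SN-011 samples in each of the 4 tissues and 24 samples in all. Trex1 encodes a DNA exonuclease, and its knockout, which every sample of both arms carried, leaves DNA in the cytosol that cGAS can bind. The labels call the controls untreated and give SN-011 at 5 mg/kg, 3 times a week over 4 weeks. No mice with intact Trex1 were among the samples, so the levels below describe the knockout only. The questions were whether SN-011 changed the RNA level of the pathway it inhibits, and in which tissue each gene of the pathway was highest.

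In this pathway, cGAS binds double-stranded DNA in the cytosol and makes the cyclic dinucleotide cGAMP. cGAMP binds STING on the endoplasmic reticulum, and STING then travels to the Golgi and recruits TBK1, which phosphorylates IRF3. IRF3 enters the nucleus and switches on Ifnb1, and the secreted interferon acts on the receptor of IFNAR1 and IFNAR2, whose kinases TYK2 and JAK1 switch on the interferon-stimulated genes. STING antagonists act on the protein, so the RNA levels of the pathway are a separate measurement from its activity.

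Total counts per sample ran from 14253416 to 18443329, and 3 counts, taken as the smallest level that can be shown, stood for 0.163 to 0.210 CPM (counts scaled to the size of the library). This floor covers counting error only. One library stood apart from the rest. In replicate 2 of the SN-011 muscle, 11546 genes had any count, where the other 23 samples had 19798 to 24264, and both Cgas and Sting1 had 0 counts. Control replicate 1 of each tissue differed in sex from the other samples of its tissue, with 3060 to 13811 counts of Xist against at most 20. Each tissue carried its own markers, with a summed level of at least 21539 CPM for the heart list, 180783 CPM for the skeletal muscle list, 11073 CPM for the tongue epithelium list and 4204 CPM for the stomach list. The 5 stomach markers (Gkn1, Gkn2, Tff1, Atp4a and Atp4b) also reached a summed 928 CPM in the control heart, 668 CPM in the control muscle and 1242 CPM in the control tongue, against at most 26.3 CPM in the SN-011 samples of these tissues. No sample had a count of Trex1, but the Atrip gene covers it in the same orientation, so this does not show the genotype.

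Ifnb1 is the gene that IRF3 switches on, so the letters before its start are shown first. In the RefSeq promoter windows of GRCm38.p6, 9 of the 10 genes were present. The 250 bases before the start of each were searched on both strands. The core of interferon regulatory factor sites, AANNGAAA, and the paired form in interferon-stimulated genes, GAAANNGAA, were sought. So were the STAT site TTCNNNGAA and the NF-kB core GGAAATTCC. For Ikbke and Jak1, only 207 and 191 of these bases lie outside the gene in GENCODE M21, and no match lay in the rest. Ifnb1 had 3 matches to AANNGAAA and 1 to GGAAATTCC. The AACTGAAA and GGAAATTCC matches lie in the stretch known as its virus-inducible enhancer, and AAGAGAAA lies upstream of them. Among all 32851 windows, 21.3% held AANNGAAA, 7.13% GAAANNGAA, 7.02% TTCNNNGAA and 0.286% GGAAATTCC. Of the other genes, Ikbke held 1 AANNGAAA on the reverse strand and Ifnar2 held 1 TTCNNNGAA, and no window of the 9 genes held GAAANNGAA. The stretches with a match are shown, 40 bases to either side where the window allowed, with the matches in capitals. They lie on the strand of the gene at chr4:88522861-88522993 (minus strand), chr1:131279648-131279735 (minus strand) and chr16:91372533-91372617 (plus strand). A match describes the letters only and is not a measured site.

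Ifnb1: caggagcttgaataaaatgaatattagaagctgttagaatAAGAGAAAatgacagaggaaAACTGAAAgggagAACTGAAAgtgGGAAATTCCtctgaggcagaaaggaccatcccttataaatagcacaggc

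Ikbke: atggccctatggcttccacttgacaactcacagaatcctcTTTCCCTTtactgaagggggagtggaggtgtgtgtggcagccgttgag

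Ifnar2: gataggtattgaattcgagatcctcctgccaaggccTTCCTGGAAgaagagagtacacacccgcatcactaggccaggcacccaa

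The tissues differed in which gene of the pathway stood highest. To compare genes and tissues, levels were scaled to library size and to each kilobase of exon (RPKM), and tissues were compared in their control samples in 1 edgeR fit of all 24 samples. Of 54 comparisons of a gene between 2 control tissues, 23 had an adjusted p under 0.05 by edgeR's quasi-likelihood test. Of these 23, 14 kept an adjusted p under 0.05 in each of the 13 other settings run, among them leaving out each control sample of the pair in turn, and 21 were also past it in the SN-011 samples. These counts stand against a high background. Of all genes tested, 42.5% were called when heart was set against stomach, 33.7% with muscle and 29.1% with tongue in place of stomach. The share was 51.6% for stomach and muscle, 36.9% for stomach and tongue, and 38.1% for muscle and tongue. The members called were 4, 6, 5, 3, 1 and 4 of 9, in the same order, since Ifnb1 did not pass the filter on low counts in that fit. Same-numbered control samples deviated together in part, with a mean correlation of 0.45 between heart and muscle, 0.36 between muscle and tongue and 0.35 between heart and tongue. In the pairs with stomach the mean was 0.07 to 0.17. A block on the number, taken within each arm, changed 1 of the 54 calls, that of Ifnar2 between stomach and muscle. Scaling mattered where muscle was one of the pair. With library sizes alone in place of TMM, the median log2 difference of all genes was 0.94 for heart over muscle, 0.91 for stomach over muscle and -0.88 for muscle from tongue, beside 0.11, 0.12 and -0.08 with TMM, so values under library size alone are read against those medians.

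**Figure D1:**
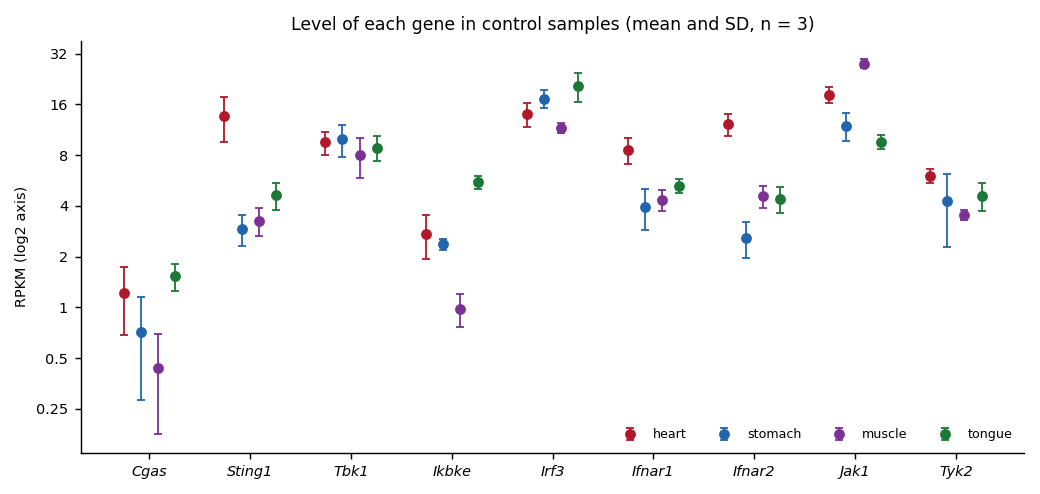
Level of the 9 pathway genes that passed the filter, as the mean RPKM of the 3 control samples of each tissue on a log2 axis, with bars of 1 SD. Sting1 and Ifnar2 were highest in the heart, Ikbke in the tongue and Jak1 in the muscle, while Tbk1 lay between 7.99 and 9.93 RPKM in every tissue.

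The sensor had the lowest RPKM of the 9 genes in every tissue. Cgas (chromosome 9, 78430526 to 78443237, minus strand of GRCm38) stood at 1.53 ± 0.277 RPKM in the control tongue (SD, n = 3), 1.21 ± 0.521 in the heart, 0.715 ± 0.434 in the stomach and 0.434 ± 0.258 in the muscle. The tongue samples ran from 1.22 to 1.76 RPKM and overlapped those of the heart, and the only pair with an adjusted p under 0.05 was muscle below tongue, with a log2 difference of -1.81 (SE 0.69, adjusted p = 0.0445). That call was lost in 6 of the 13 other settings, namely when any 1 of the 6 control samples of the 2 tissues was left out (adjusted p 0.0514 to 0.168). Its log2 difference stayed between -2.62 and -1.40. Cgas in the heart exceeded the muscle with an adjusted p under 0.05 in DESeq2 (0.0189), with library sizes alone (0.0121) and without muscle SN-011 replicate 2 (0.0219).

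Sting1 was highest in the heart. The control hearts had 14.03, 9.44 and 17.4 RPKM, the tongues 4.80, 5.39 and 3.74, the muscles 2.55, 3.69 and 3.53, and the stomachs 2.25, 3.07 and 3.44. Every heart sample lay above every sample of the other tissues, and the mean of the heart was 4.67 times that of the stomach. The heart exceeded the stomach by 2.22 (SE 0.67, adjusted p = 0.0109) and the muscle by 2.07 (SE 0.67, adjusted p = 0.0213) on the log2 scale. In the SN-011 samples the difference of heart from stomach was 1.32 (adjusted p = 0.113), no longer past the threshold. The call between heart and muscle was lost without heart control replicate 3 (adjusted p = 0.0727) or without any 1 of muscle control replicates 1, 2 and 3 (0.0815, 0.0547 and 0.0599). The difference from the tongue was 1.55 (SE 0.65, adjusted p = 0.0808), and it was called in DESeq2 (0.0400) and with only the control samples of the pair (0.0046). The large errors include muscle SN-011 replicate 2, which had 0 counts of Sting1. Without that library, a setting chosen after seeing the data, the heart exceeded the stomach by 2.21 (SE 0.32), the muscle by 2.06 (SE 0.32) and the tongue by 1.54 (SE 0.31, adjusted p = 0.000601). Stomach, muscle and tongue were not told apart from each other, with adjusted p of 0.459 to 0.867, and the 95% interval of stomach against muscle, for one, ran from -1.51 to 1.20.

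The 2 kinases behaved differently. Tbk1, the kinase that STING recruits, was at 9.93 ± 2.10 RPKM in the control stomach, 9.53 ± 1.49 in the heart, 8.88 ± 1.49 in the tongue and 7.99 ± 2.11 in the muscle. The highest mean was 1.24 times the lowest, the groups overlapped in every pair, and no pair had an adjusted p under 0.05. Stomach exceeded muscle by 0.31 (adjusted p = 0.213), a difference that was called with DESeq2's size factors (0.56, adjusted p = 0.0374), in DESeq2 (0.0279), without muscle control replicate 1 (0.0433) and with library sizes alone (1.14, adjusted p = 0.00098). Library sizes alone also called heart over muscle (1.09, adjusted p = 0.00219) and muscle below tongue (-0.96, adjusted p = 0.00501). In the SN-011 samples stomach minus muscle was -0.31. Ikbke, which encodes the TBK1-related kinase IKKε, had 5.03, 5.92 and 5.64 RPKM in the control tongues. The hearts had 2.43, 2.14 and 3.66 RPKM, the stomachs 2.53, 2.39 and 2.18, and the muscles 1.23, 0.810 and 0.902. The tongue lay above every other sample and the muscle below every other sample, while heart and stomach overlapped. The log2 difference from the tongue was -2.49 (SE 0.23) for muscle, -1.23 (SE 0.22) for stomach and -1.01 (SE 0.22) for heart, and heart and stomach exceeded muscle by 1.48 (SE 0.22) and 1.27 (SE 0.22), with adjusted p from 5.5e-08 to 0.0014. In the SN-011 samples the difference of stomach from tongue was -0.53 (adjusted p = 0.0652). Ikbke has a union of exons of 9018 bases and a longest coding transcript of 3251 bases, so its RPKM per coding transcript was higher (15.3 in the tongue), which moves its rank among the genes but not its order across tissues.

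Irf3 was at 20.6 ± 4.01 RPKM in the tongue, 17.4 ± 2.17 in the stomach, 14.1 ± 2.26 in the heart and 11.6 ± 0.802 in the muscle. The log2 difference of muscle from tongue was -0.83 (SE 0.18, adjusted p = 0.000927), and stomach exceeded muscle by 0.58 (SE 0.18, adjusted p = 0.0102), and the second call was at an adjusted p of 0.0503 without muscle control replicate 3. The difference of heart from tongue was -0.55 (SE 0.18, adjusted p = 0.0239), a call that was lost without tongue control replicate 1, tongue control replicate 3 or heart control replicate 1 (adjusted p 0.131, 0.0585 and 0.135), without a filter (0.0907) and with only the control samples of the pair (0.0628). Heart over muscle was called for Irf3 with DESeq2's size factors (0.0443), in DESeq2 (0.0265) and with library sizes alone (0.000104). Neighbours in the order, tongue and stomach, and stomach and heart, did not differ beyond their spread (adjusted p = 0.293 and 0.182).

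Both chains of the receptor were highest in the heart. Ifnar1 was at 8.56 ± 1.51 RPKM in the heart, 5.24 ± 0.498 in the tongue, 4.35 ± 0.602 in the muscle and 3.95 ± 1.08 in the stomach. Ifnar2, the chain that binds interferon with the higher affinity, had 11.7, 10.7 and 14.1 RPKM in the control hearts. The muscles had 4.22, 4.11 and 5.32 RPKM, the tongues 5.16, 4.36 and 3.62, and the stomachs 2.16, 2.29 and 3.30. For both genes every heart sample lay above every sample of the other tissues. The heart exceeded stomach, muscle and tongue by 1.11 (SE 0.21), 0.98 (SE 0.21) and 0.71 (SE 0.20) for Ifnar1 and by 2.23 (SE 0.35), 1.42 (SE 0.34) and 1.48 (SE 0.34) for Ifnar2 on the log2 scale, each with an adjusted p of at most 0.0126. In the SN-011 samples Ifnar2 in the heart exceeded the stomach by 1.05 (adjusted p = 0.0170). The Ifnar1 difference from the tongue was lost without tongue control replicate 3, without heart control replicate 3 or without a filter (adjusted p = 0.0663, 0.0839 and 0.0631), and Ifnar1 was called between stomach and tongue without stomach control replicate 3 (0.0425) and between muscle and tongue with library sizes alone (0.00216). The Ifnar2 difference of stomach from muscle was -0.81 (SE 0.34, adjusted p = 0.0520) and from tongue -0.76 (SE 0.34, adjusted p = 0.0873). Without muscle SN-011 replicate 2 these adjusted p became 0.0091 and 0.0170. The first was also past the threshold with the replicate block (0.0326) and without stomach control replicate 3 (0.0347), but with library sizes alone that difference was 0.03 and in the SN-011 samples 0.76 (adjusted p = 0.0652).

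Jak1 had another order. The control muscles had 28.0, 26.1 and 29.5 RPKM, the hearts 18.5, 16.3 and 20.2, the stomachs 9.95, 11.6 and 14.3, and the tongues 9.25, 10.7 and 8.98. Muscle lay above all other samples, heart lay above stomach and tongue, and the last 2 overlapped. Muscle exceeded tongue by 1.53 (SE 0.21), the log2 difference from muscle was -1.22 (SE 0.20) for stomach and -0.61 (SE 0.20, adjusted p = 0.0244) for heart, and heart exceeded tongue by 0.93 (SE 0.20) and stomach by 0.61 (SE 0.20, adjusted p = 0.0181). With library sizes alone, Jak1 was 0.23 higher in the heart than in the muscle (adjusted p = 0.439), the difference of stomach from muscle was -0.39 (adjusted p = 0.179), which ended that call, and that of muscle from tongue was 0.72 (adjusted p = 0.0197). With DESeq2's size factors the difference of heart from muscle was -0.45 (adjusted p = 0.0738). DESeq2 (0.0565), the fit without a filter (0.0730) and leaving out muscle control replicate 1 or 3, or heart control replicate 1 or 2 (0.0539 to 0.0987), also ended that call. The heart and stomach call was lost without heart control replicate 3 or stomach control replicate 1 or 2 (0.0505 to 0.0805), without a filter (0.0535) and with only the control samples of the pair (0.0680). Tyk2 was at 6.05 ± 0.579 RPKM in the heart, 4.59 ± 0.880 in the tongue, 4.25 ± 1.97 in the stomach and 3.54 ± 0.264 in the muscle. Heart exceeded muscle by 0.77 (SE 0.25, adjusted p = 0.0192), which was lost without muscle control replicate 1 (0.0731) or heart control replicate 3 (0.0647), and no other pair was called in the reported fit. Tyk2 was called between heart and stomach without stomach control replicate 3 (0.00229) and between stomach and muscle without stomach control replicate 1 (0.0449), and with library sizes alone for stomach over muscle (0.0040) and muscle below tongue (0.0041). Jak1 and Tyk2, partners on the same receptor, thus had their lowest mean in different tissues.

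Genes whose log2 CPM ran most like that of 3 members over the 24 samples were looked up as a description, since these samples share tissues, libraries and depth. Nearest to Sting1 were Lcp2 (Pearson r = 0.99), Myo1g (0.98) and Rinl (0.98), which are expressed in white blood cells. Nearest to Cgas were Prc1 (0.94), Tnfrsf18 (0.92) and Nsl1 (0.92), of which Prc1 and Nsl1 act in cell division. Nearest to Ikbke were Acsbg1 (0.95), Cd44 (0.94) and Cdh3 (0.94), and Cdh3 encodes P-cadherin of stratified epithelia. Of these 9 genes, all but Cd44 had 0 counts in muscle SN-011 replicate 2, as did Cgas and Sting1. Over the other 23 samples r was 0.92 to 0.96 for the 3 genes beside Sting1, 0.84 to 0.87 beside Cgas and 0.94 to 0.95 beside Ikbke.

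None of the 9 genes that could be tested passed the threshold of an adjusted p of 0.05 for SN-011 against control in any tissue, by edgeR's quasi-likelihood test within each tissue. Sting1 leaned lower in heart and tongue, and Ikbke, Irf3 and Ifnar2 leaned higher in the stomach. Of the 36 comparisons, 6 had an unadjusted p under 0.05. The background was low: of all genes tested, 0.848% were called for the heart, 0% for the stomach, 0.0141% for the muscle and 0% for the tongue. At an unadjusted p under 0.05 the members were 1 of 9 (heart), 3 (stomach), 0 (muscle) and 2 (tongue), against 22.4%, 24.6%, 14.8% and 12.5% of all genes. With 3 samples a group, other tests made more calls. edgeR's exact test called 0 of the 36 comparisons, against 5.68%, 10.8%, 3.37% and 1.53% of all genes in heart, stomach, muscle and tongue. DESeq2 called Sting1 in the heart, where it called 8.43% of all genes, and Irf3 in the stomach, where it called 14.0%. The edgeR fit of all tissues called Irf3 and Ikbke in the stomach, with 13.9% of all genes, and the fit of all genes without a filter called Sting1 in the heart, with 6.23%. The 2 arms did not overlap for 2 members in the stomach, both with SN-011 above, and for 2 in the tongue, both with SN-011 below, while all 9 overlapped in heart and muscle. Of all genes, SN-011 lay above without overlap for 14.1% (heart), 17.8% (stomach), 14.7% (muscle) and 9.40% (tongue), and below for 13.1%, 15.2%, 19.8% and 8.38%. Within a tissue the members' median log2 fold change was -0.18 for heart, 0.22 for stomach, 0.10 for muscle and -0.05 for tongue, beside -0.01, 0.00, -0.08 and -0.01 over all genes tested. Nothing in the labels says whether the numbered samples of a group came from separate mice, so p-values measure the spread between these samples. Over all genes the count of calls rested on single libraries: it was 0 in the tongue but 2135 without control replicate 1, 2 in the muscle but 1103 without SN-011 replicate 2, 0 in the stomach but 64 without control replicate 1, and 137 in the heart but 1 without SN-011 replicate 2. In whole tissue, fewer cells of a type and less RNA per cell cannot be told apart.

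**Figure D2:**
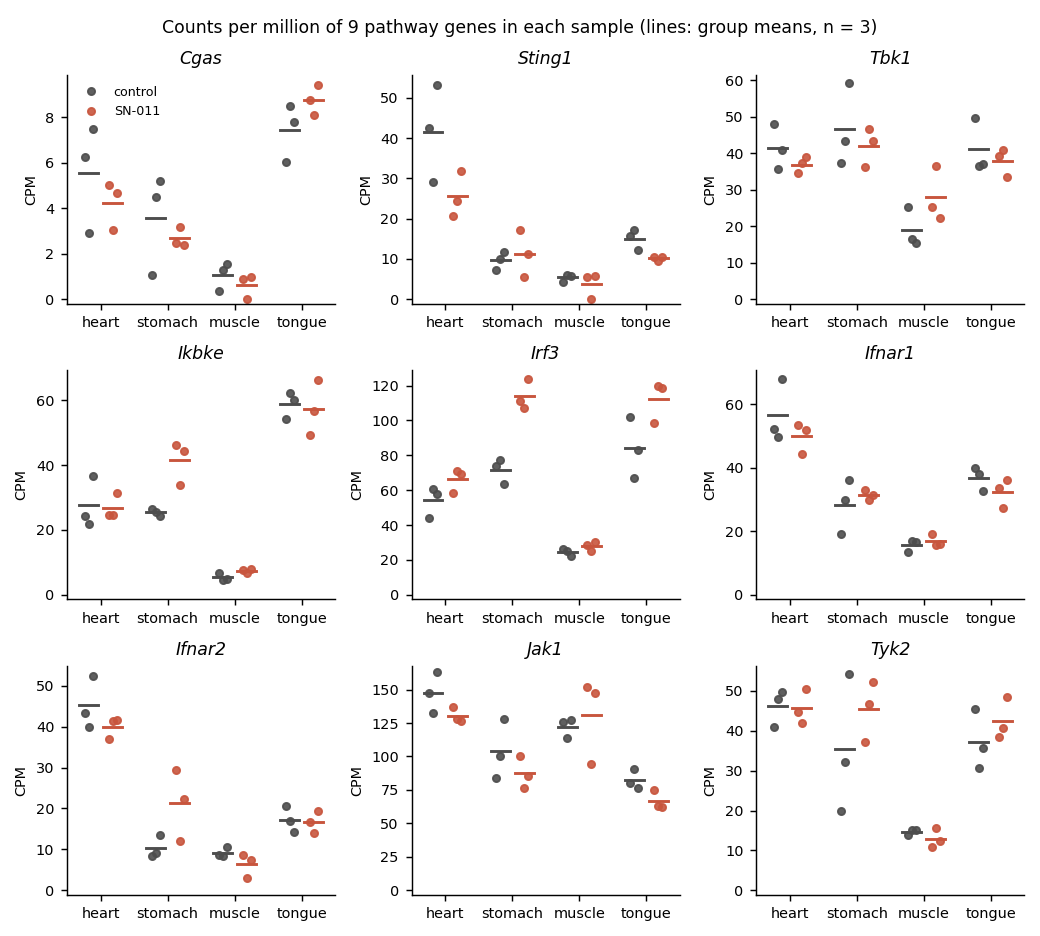
CPM of the 9 tested pathway genes in each sample, by tissue, with control samples in grey, SN-011 samples in red and lines at the group means of 3 samples. Ikbke and Irf3 in the stomach and Sting1 and Jak1 in the tongue are the 4 panels and tissues in which the 2 arms did not overlap, and the single points at 0 for Cgas and Sting1 are muscle SN-011 replicate 2.

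In the heart, Sting1 (chromosome 18, 35733679 to 35740554, minus strand) was at 42.6, 29.1 and 53.2 CPM in the controls and at 20.7, 24.3 and 31.8 CPM after SN-011. The lowest control, replicate 2, lay below the highest SN-011 sample, so the groups overlapped. The log2 fold change was -0.70 (SE 0.23, 95% interval -1.23 to -0.18), with an unadjusted p of 0.0142 and an adjusted p of 0.133 by edgeR's quasi-likelihood test. The adjusted p was 0.0421 without control replicate 2, 0.0408 in DESeq2 and 0.00175 without a filter on low counts, and it ran up to 0.964 over the other settings. Of all genes, 787 of 16599, 1361 of 16151 and 1888 of 30288 were called in these settings, in the same order. Markers of cell types were compared in the same hearts. The 4 fibroblast markers summed to 1125 to 1479 CPM in the control hearts and 901 to 994 CPM after SN-011, without overlap. Of these 4, 1 was called lower. The 5 endothelial markers summed to 701 to 818 and 614 to 743 CPM, and 2 of them, Kdr (112 to 142 and 61.2 to 109 CPM) and Cdh5 (204.1 to 225 and 154 to 204.0 CPM), were lower without overlap. The 7 macrophage markers overlapped in sum (1210 to 1578 and 1078 to 1625 CPM), of which C1qa and C1qb make up most, and at an unadjusted p under 0.05 2 of the 7 were lower and 1 was higher. Those of T and NK cells were at 103 to 194 and 89.8 to 142 CPM, and those of B cells at 14.9 to 282 and 6.06 to 132 CPM. The 5 markers of the heart list summed to 21539 to 30488 CPM in the controls and 30884 to 37287 CPM after SN-011, higher without overlap. The part of all these markers in the Sting1 difference was not tested.

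Sting1 in the tongue was at 15.7, 17.3 and 12.1 CPM in the controls and at 10.5, 9.58 and 10.6 CPM after SN-011. All 3 SN-011 samples lay below all controls. Among all genes of the tongue, 8.38% had SN-011 samples below the controls without overlap. The log2 fold change was -0.56 (SE 0.19, interval -0.999 to -0.12), with an unadjusted p of 0.0202 and an adjusted p of 0.349, and the exact permutation test of the means gave the smallest p that 3 against 3 samples allow, 0.1. Macrophage markers summed to 493 to 1206 CPM in the control tongues and to 678 to 879 CPM after SN-011, so the SN-011 range lay inside the control range. Their median log2 fold change was -0.13, beside -0.36 for T and NK cell, -0.26 for endothelial and -0.43 for fibroblast markers. Larger falls were seen for neutrophil (-5.10), B cell (-1.07), tongue epithelium (-1.13) and stomach markers (-6.29). The heart list was at -0.22 and the skeletal muscle list at 0.19. Of the 3 neutrophil markers tested, 2 were lower at an unadjusted p under 0.05. The neutrophil sum was 314 CPM in control replicate 3, against 9.73 and 10.7 CPM in control replicates 1 and 2. The part of these markers in the Sting1 difference of the tongue was not tested. Sting1 in the stomach was at 7.18, 10.04 and 11.7 CPM in the controls and at 17.1, 5.41 and 11.1 CPM after SN-011, and the SN-011 samples held both the highest and the lowest value (log2 fold change 0.22, SE 0.45). In the muscle, 2 of the SN-011 samples were at 5.58 and 5.73 CPM, inside the control range of 4.33 to 6.11 CPM, and the third was at 0, so the fitted change of -0.51 (SE 1.26) became 0.07 without it. The SN-011 effects on Sting1 in heart and stomach differed by -0.90 (SE 0.91, adjusted p = 0.689), which did not tell the tissues apart.

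Cgas showed no difference beyond the spread in any tissue. It was at 6.26, 2.90 and 7.49 CPM in the control hearts and 5.04, 3.03 and 4.67 CPM after SN-011, and at 6.02, 8.48 and 7.81 CPM in the control tongues and 8.77, 8.09 and 9.40 CPM after SN-011. Its log2 fold change was -0.39 for heart (interval -1.22 to 0.43), -0.42 for stomach (-1.82 to 0.97) and 0.24 for tongue (-0.27 to 0.74). In the muscle Cgas had 61 counts over the 3 control samples and 31 over the SN-011 samples, and the interval of its log2 fold change ran from -3.84 to 2.31, so that no difference was detectable at this depth.

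**Figure D3:**
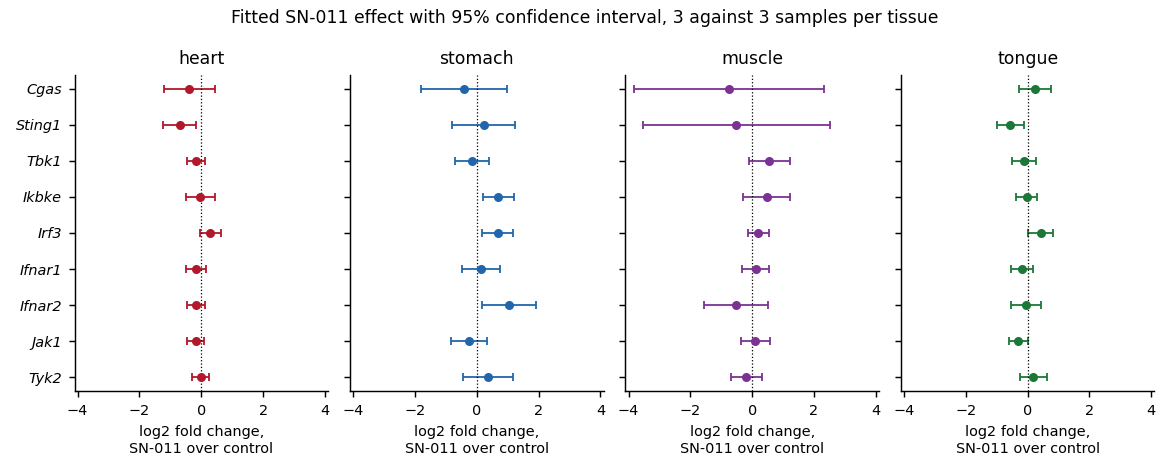
Fitted log2 fold change of SN-011 over control for the 9 tested genes in each tissue, with 95% confidence intervals. The intervals of Sting1 in heart and tongue lie below 0 and those of Ikbke, Irf3 and Ifnar2 in the stomach and Irf3 in the tongue above 0, and the widest are Cgas and Sting1 in the muscle.

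The 3 largest positive values were in the stomach. Ikbke was at 26.5, 25.7 and 24.3 CPM in the control stomachs and at 46.2, 33.8 and 44.5 CPM after SN-011. Irf3 (chromosome 7, 44997648 to 45002848, plus strand) was at 73.9, 77.2 and 63.3 CPM in the controls and at 111, 107 and 124 CPM after SN-011. For both genes all SN-011 samples lay above all controls, as they did for 17.8% of all genes in the stomach. Ikbke had a log2 fold change of 0.70 (SE 0.22, interval 0.20 to 1.20, unadjusted p = 0.0120, adjusted p = 0.117 by edgeR's quasi-likelihood test). Irf3 had one of 0.68 (SE 0.22, interval 0.17 to 1.18, unadjusted p = 0.0150, adjusted p = 0.126). In the joint fit of all tissues the adjusted p was 0.0452 for Ikbke and 0.0216 for Irf3, and DESeq2 gave 0.0359 for Irf3 and 0.0592 for Ikbke. Ifnar2 was at 8.39, 9.10 and 13.6 CPM in the controls and at 29.3, 12.1 and 22.3 CPM after SN-011, with 1 SN-011 sample, replicate 2, inside the control range. Its log2 fold change was 1.03 (SE 0.38, interval 0.17 to 1.90, adjusted p = 0.149).

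Markers of the stomach wall moved in the same comparison. The 5 keratins of squamous epithelium, which also lines the forestomach of mice, summed to 89.1 to 202 CPM in the control stomachs and 361 to 1175 CPM after SN-011, and 4 of the 5 (Krt5, Krt13, Krt4 and Krt14) did not overlap between the arms. The 5 gastric gland and surface markers summed to 22200 to 78809 CPM in the controls and 4204 to 27034 CPM after SN-011, the 4 fibroblast markers to 272 to 470 and 286 to 1069 CPM, and the 4 neutrophil markers to 1.94 to 5.18 and 7.47 to 15.3 CPM. The 7 markers of T and NK cells summed to 41.6 to 51.5 CPM in the controls and 16.3 to 41.2 CPM after SN-011. The 3 SN-011 stomachs took one order, with replicate 1 highest and replicate 2 lowest, for Ifnar2, Ikbke, Sting1, Ifnar1 and Jak1. The summed markers of squamous epithelium, fibroblasts, endothelium, macrophages, T and NK cells, B cells and neutrophils took it as well. Irf3 (111, 107 and 124 CPM in replicates 1, 2 and 3), Tyk2, Tbk1 and Cgas did not. The gastric gland and surface markers ran the opposite way, at 4204, 27034 and 18770 CPM. The control stomachs took other orders. There the squamous and the gastric sums both fell from replicate 1 to replicate 3, at 202, 169 and 89.1 CPM and at 78809, 38820 and 22200 CPM. Ikbke fell in that order too, while Ifnar2 (8.39, 9.10 and 13.6 CPM), Sting1, Ifnar1 and Jak1 rose. Ikbke was highest of all tissues in the tongue, which carries a squamous epithelium. The part of these markers in the differences of Ikbke, Irf3 and Ifnar2 was not tested. Irf3 shares 88 exon bases with Bcl2l12 on the opposite strand, and Bcl2l12 was also higher after SN-011 in the stomach, by 0.87 (SE 0.32, adjusted p = 0.152), with 100 to 136 counts in the controls and 165 to 294 after SN-011. Irf3 itself had 916 to 1238 counts in a control stomach and 1628 to 2016 after SN-011, and the part of the shared bases was not tested.

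Irf3 was the one gene of the 9 with a positive value in all 4 tissues. In the tongue it was at 102, 67.1 and 83.2 CPM in the controls and at 98.7, 120 and 119 CPM after SN-011, and only control replicate 1 lay above an SN-011 sample. The log2 fold change there was 0.42 (SE 0.18, unadjusted p = 0.0479, adjusted p = 0.397), and the adjusted p was 0.0435 without control replicate 1. That sample differed in sex from the others of the tongue, and without it 2135 of 17142 genes were called. The log2 fold change of Irf3 was 0.29 in the heart (SE 0.15, adjusted p = 0.280) and 0.20 in the muscle (SE 0.15, adjusted p = 0.587). The value in muscle turned to -0.03 with library sizes alone. Ikbke outside the stomach was at -0.04 in heart and tongue and 0.47 in the muscle (SE 0.31). Its effect in the heart minus that in the stomach was -0.71 (SE 0.31, adjusted p = 0.235), and its effect in the stomach exceeded that in the tongue by 0.70 (SE 0.30, adjusted p = 0.266), past an unadjusted p of 0.05 but not the threshold.

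Tbk1, Jak1, Tyk2 and Ifnar1 had no unadjusted p under 0.05 in any tissue. Tbk1 lay between -0.17 and -0.12 on the log2 scale in heart, stomach and tongue. In the muscle it was at 25.2, 16.5 and 15.3 CPM in the controls and 25.3, 36.4 and 22.3 CPM after SN-011 (0.56, SE 0.28, adjusted p = 0.418). The highest of these, 36.4 CPM, was the library with few genes, and without it the value was 0.32. Jak1 in the tongue was at 80.0, 90.5 and 76.7 CPM in the controls and 74.8, 63.2 and 62.1 CPM after SN-011, all below the controls (-0.30, SE 0.13, unadjusted p = 0.0533, adjusted p = 0.402). Jak1 was at -0.18 (heart), -0.25 (stomach) and 0.10 (muscle). Tyk2 ran from -0.19 in the muscle to 0.36 in the stomach, where its controls spread from 19.8 to 54.2 CPM. Ifnar1 ran from -0.18 in heart and tongue to 0.15 in the stomach, and Ifnar2 was at -0.18 in the heart, -0.52 in the muscle and -0.05 in the tongue. In the muscle Ifnar2 was at 8.71, 8.26 and 10.5 CPM in the controls and 8.69, 3.02 and 7.43 CPM after SN-011. The lowest was again the library with few genes, and without it the value was -0.19.

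Between tissues, the difference in SN-011 effect on a member had an adjusted p under 0.05 in 0 of 54 tests, 7 of which had an unadjusted p under 0.05. These 7 were 2 of 9 between heart and stomach, 1 between heart and muscle, 2 between stomach and muscle and 2 between stomach and tongue, where 17.0%, 6.60%, 24.1% and 15.4% of all genes were at that p, and 0 between heart and tongue (2.83%) and muscle and tongue (8.10%). Of all genes tested, 2.01% were called between heart and stomach, 6.95% between stomach and muscle and 0.821% between stomach and tongue, with 0.00507% for heart and muscle, 0.0355% for muscle and tongue, and 0% for heart and tongue. Ifnar2 came nearest. Its effect in the stomach exceeded that in the muscle by 1.57 (SE 0.48, interval 0.56 to 2.58, adjusted p = 0.0532), and it was called in 4 other settings, with adjusted p from 0.0108 in DESeq2 to 0.0406 with DESeq2's size factors in edgeR. It was also called without stomach control replicate 3 (0.0297), stomach SN-011 replicate 2 (0.0166) or muscle SN-011 replicate 1 (0.0386). In the fit without a filter and without any 1 of the other 9 samples the adjusted p was 0.0544 to 0.167. Without muscle SN-011 replicate 2, which had 37 counts of Ifnar2, the difference was 1.20 (adjusted p = 0.0554). These comparisons share the samples of the single tissues with those above.

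Ifnb1 (chromosome 4, 88522025 to 88522774, minus strand), whose enhancer is printed above, was close to absent in RNA. It had counts in 13 of 24 samples, 50 counts in total and at most 8 in a sample, and it was above the floor of 3 counts in 7 samples. The control hearts had 5, 8 and 4 counts and the SN-011 hearts 5, 0 and 3. The control tongues had 6, 2 and 5 counts and the SN-011 tongues 2, 2 and 4. The groups overlapped in both tissues, and 3 against 3 samples gave exact two-sided permutation p of 0.4 in the heart and 0.2 in the tongue for the means in CPM. The stomach had 0 counts in the 3 controls and 3 counts in 1 SN-011 sample, and the muscle had 1 count in all. A difference in Ifnb1 was not detectable at this depth. The other interferons of the list were rarer still. Of 20 genes for type I and type III interferons, 9 had 0 counts in every sample, Ifne, an epithelial interferon, was the only one with a count over 10 in any sample, and none passed the filter in any tissue.

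**Figure D4:**
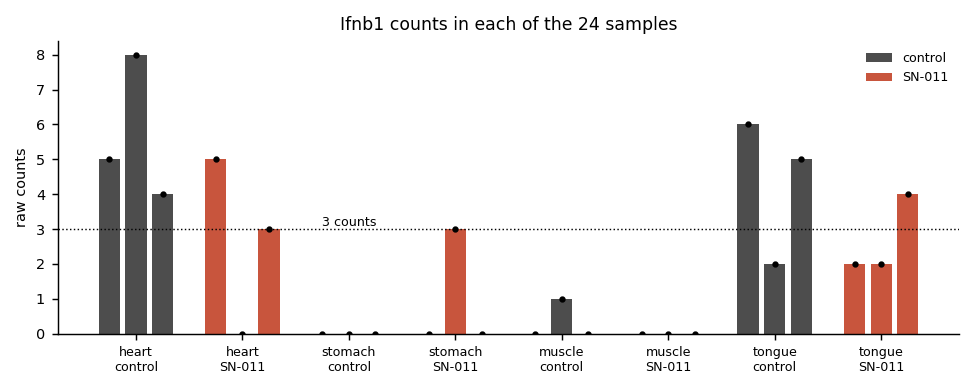
Raw counts of Ifnb1 in each of the 24 samples, 3 bars for each tissue and arm, with the floor of 3 counts dotted. Counts above the floor are found in 4 of the 6 heart samples and 3 of the 6 tongue samples, and in no sample of stomach or muscle.

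The genes around the pathway were followed as lists fixed by function. Of the 12 cofactors of cGAS and handlers of cGAMP, the 18 genes of STING trafficking and turnover, the 12 scaffold and kinase partners of TBK1, the 16 partners of the interferon receptor and the 14 other sensors and adaptors of nucleic acids, 0 were called in any tissue by edgeR's quasi-likelihood test. At an unadjusted p under 0.05 each list had 0 to 4 higher in a tissue. The STING genes had 1 of 18 higher in the heart, 3 of 18 in the stomach, 4 of 17 in the muscle and 0 of 18 in the tongue. The other lists had 0 to 2. Higher at that p among all genes were 1737 of 16151 (heart), 2241 of 17031 (stomach), 1272 of 14198 (muscle) and 858 of 16587 (tongue). Lower at that p in heart, stomach, muscle and tongue were 11.6%, 11.4%, 5.80% and 7.33% of all genes. In the same order, the receptor partners had 5 of 16, 5 of 16, 1 of 15 and 5 of 16 lower. The sensors had 4, 3, 2 and 3 of 13 or 14 lower, and the TBK1 partners 3, 4, 0 and 2 of 12. The cofactors of cGAS had 2, 1, 1 and 2 of 11 or 12, and the STING genes 0, 2, 1 and 1 of 17 or 18. Of 10 interferon-stimulated genes that serve as a read-out of the pathway, 1 was called, Cxcl10 in the heart, a chemokine, at 111 ± 36.2 CPM in the controls and 39.5 ± 9.36 after SN-011 (log2 fold change -1.49, SE 0.24, adjusted p = 0.0332). At an unadjusted p under 0.05, of the 10, 7 were lower for heart, 9 for stomach, 6 for muscle and 10 for tongue, and 0 were higher, against 11.6%, 11.4%, 5.80% and 7.33% of all genes lower. Their median log2 fold change was -0.54, -1.21, -1.10 and -0.93. The median of the T and NK cell markers in the same tissues was -0.48, -0.81, -0.11 and -0.36, with no overlap of their sum in the stomach, and their part in the read-out values was not tested. The read-out genes thus leaned lower in each tissue while the 9 pathway genes kept medians within 0.22 of 0, and the read-out list was chosen with these data known.

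**Figure D5:**
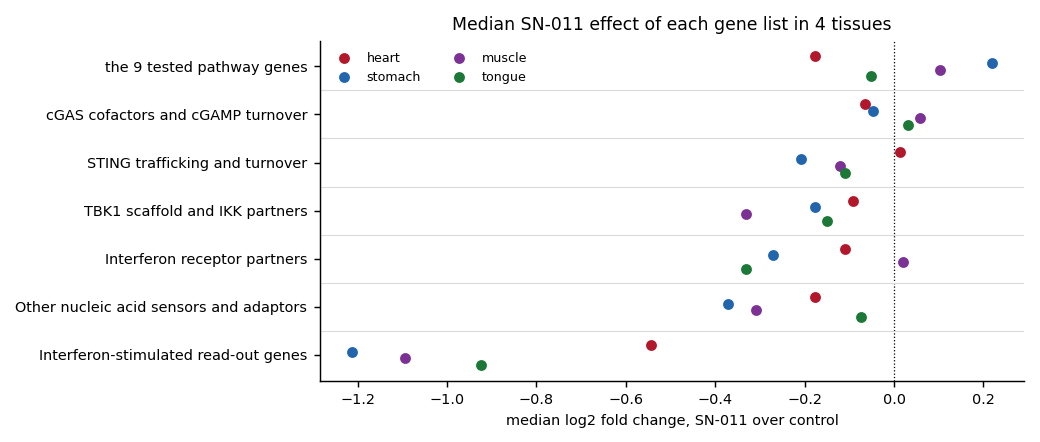
Median log2 fold change of SN-011 over control for the 9 tested pathway genes and 6 lists around them, with 1 point for each tissue. The read-out genes lie between -1.21 and -0.54, the pathway genes between -0.18 and 0.22 and the other lists between -0.37 and 0.06.

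Near the sensor, Smpdl3a, which encodes an enzyme that degrades cGAMP, was at 120 ± 16.3 CPM in the control stomachs and 48.4 ± 0.851 after SN-011 (log2 fold change -1.31, SE 0.22, adjusted p = 0.0621). Lrrc8a, a subunit of the volume-regulated anion channel that carries cGAMP, had values of 0.79 (SE 0.28) in the heart and 1.39 (SE 0.45) in the muscle. Enpp3, which also degrades cGAMP, was at -0.91 (SE 0.37) in the heart and -1.28 (SE 0.39) in the tongue, at fewer than 4 CPM. Slc46a2, a cGAMP importer, was at 0.821 CPM in the control stomachs and 2.62 CPM after SN-011. Trim56, a ubiquitin ligase that acts on cGAS, was at -0.75 (SE 0.23) in the muscle and -0.56 (SE 0.18) in the tongue. None of these passed the threshold (adjusted p 0.0621 to 0.327).

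Around STING, Ulk1, an autophagy kinase that phosphorylates STING, had the smallest p in 2 tissues. It was at 92.5 ± 10.04 CPM in the control hearts and 146 ± 15.2 after SN-011 (0.66, SE 0.13, adjusted p = 0.0546) and at 131 ± 31.0 and 321 ± 79.7 CPM in the muscle (1.29, SE 0.26, adjusted p = 0.131), and its value in the tongue was 0.34. Nlrc3, a negative regulator of STING, was at -0.28 in the heart, Tollip, which stabilises STING, at 0.99 in the muscle, and Usp20, a deubiquitinase of STING, at 0.86 in the stomach. Insig1, an endoplasmic reticulum membrane protein of sterol sensing that also binds STING, was at -1.46 (SE 0.46) in the stomach and -0.82 (SE 0.31) in the tongue. Of the partners of TBK1, Optn and Traf3 in the heart were at 0.53 (SE 0.13) and -0.53 (SE 0.13), with adjusted p of 0.0824 and 0.0781. Tbkbp1 and Azi2, both adaptors of TBK1, went apart in the stomach, at 1.56 (SE 0.46) and -0.79 (SE 0.26). In the tongue Ddx3x was at -0.44 and Chuk at 0.29, and in the muscle Rela was at 0.32 and Traf3 at -0.46.

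Among the partners of the receptor, Stat2, a transcription factor phosphorylated at the receptor, was at -0.84 (SE 0.26) in the muscle and -0.51 (SE 0.12) in the tongue. Usp18, an interferon-stimulated inhibitor of IFNAR2, was at 169 ± 40.5 CPM in the control stomachs and 68.9 ± 23.9 after SN-011 (-1.30, SE 0.34), but at 56.0 ± 1.80 and 91.7 ± 7.53 CPM in the muscle (0.71, SE 0.11, adjusted p = 0.0948). Jak2 and Socs1 in the heart were at -0.46 (SE 0.13) and -1.15 (SE 0.32). Of the other sensors, Tlr3 for double-stranded RNA was at -0.56 in the heart, -1.12 in the stomach and -0.97 in the tongue, Zbp1 at -1.33 in the muscle and -0.93 in the tongue, Tlr9 at -1.27 in the heart and Xrcc5 at -0.74 in the stomach, and Mavs in the muscle was at 0.48 (SE 0.12). Of the read-out genes, Mx1 was at -1.05 in the heart and -1.39 in the tongue, Rsad2 at -1.79 in the stomach and -0.95 in the tongue, Ifit1 at -1.72 in the stomach, and Isg15 and Ifit3 at -1.38 and -1.11 in the muscle. None of the genes of this paragraph had an adjusted p under 0.05 (0.0565 to 0.268).

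Some of these genes share sequence with others in the annotation, and whether the counting used strand was not given in the sources used here. Cgas shares 201 exon bases with Gm8093 on the opposite strand, which had at most 9 counts in a sample, and Tyk2 shares 554 with 1700084C06Rik, which had 0. Ifnar2 shares 315 bases with Gm21970 on the same strand, which had 0 counts in all samples, and pairs that fall there may have been left out of both. Ikbke shares 159 and 65 bases with Gm28914 and Gm28913, which had at most 7 and 24 counts. Sting1, Tbk1, Ifnar1 and Ifnb1 share no exon bases with another gene.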

How the data were processed

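Whole-tissue polyA+ RNA was sequenced, and the authors deposited raw counts of reads per gene for each sample. The labels name HISAT2, HTSeq and mm10, while the methods of the study name another counting tool, another sequencer and another dose and schedule of SN-011, with vehicle-treated controls. The labels were followed. Whether the counting used strand was not given in the sources used here. Identifiers were matched to GENCODE M21. Counts were tested with edgeR 4.0.16 (R 4.3.3) by the quasi-likelihood test within each tissue, after filterByExpr (minimum count 10, minimum total 15), TMM scaling and Benjamini-Hochberg adjustment over all genes tested. A gene was called at an adjusted p under 0.05. Tissue levels and differences in effect came from 1 fit of all 24 samples. CPM used TMM library sizes within a tissue, and RPKM those of the joint fit with the union of exons as length. Single values were compared by two-sided exact permutation tests, which cannot go below p = 0.1 with 3 against 3 samples. DESeq2 1.42.0, edgeR's exact test, other scalings and filters, a block on the replicate number and leaving out each sample were alternatives. The labels do not say whether samples of different tissues came from the same mouse, and the fit of 24 samples treats them as independent. Deviations of same-numbered control samples correlated at 0.24 to 0.57 between heart and muscle, 0.18 to 0.46 between muscle and tongue and 0.09 to 0.51 between heart and tongue. In the pairs with stomach they ran from -0.14 to 0.27. Listed genes were named as those with the 2 smallest p in each list and tissue. One gene that this rule named is not reported here. The members and lists were chosen with earlier results of these data known. The procedure was run on simulated counts without an outlying library, a sex difference or deviations shared between samples, so that run does not cover these features of the data.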

Additional observations from a re-analysis of the deposited data

How the results depend on the processing

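Of the 36 SN-011 values of members, none was called in the reported fit. With other scalings, filters and tools, 1 member was called in the heart without a filter (Sting1) and 1 by DESeq2 (Sting1), and in the stomach 1 by DESeq2 (Irf3) and 2 in the joint fit (Irf3 and Ikbke). Leaving out 1 sample gave 0 to 1 called members in the heart (Sting1, without control replicate 2) and 0 to 1 in the tongue (Irf3, without control replicate 1). All genes called in the heart were 137, against 249 with library size alone, 1888 without a filter, 265 with at least 10 counts in every sample, 1361 by DESeq2, 918 by the exact test and 1 in the joint fit, and 1 to 787 with a sample left out. In the stomach 0 became 1368 without a filter, 126 with at least 10 counts, 2389 by DESeq2, 1835 by the exact test and 2738 in the joint fit, and 0 to 64 with a sample left out. In the muscle 2 became 1 with DESeq2 size factors, 1 with library size alone, 110 without a filter, 75 with at least 10 counts, 880 by DESeq2, 479 by the exact test and 474 in the joint fit, and 0 to 1103 with a sample left out. In the tongue 0 became 18 without a filter, 418 by DESeq2, 253 by the exact test and 4 in the joint fit, and 0 to 2135 with a sample left out. The cause was not tested.

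Within a tissue the replicate numbers were not treated as pairs, since the deviations of same-numbered control and SN-011 samples had a mean correlation of -0.04. The replicate block gave 242 genes for heart, 181 for stomach and 0 for muscle and tongue, 0 called members in each tissue, and 1 called difference in effect between stomach and muscle (Ifnar2, adjusted p = 0.0367). Between tissues same-numbered controls did deviate together in part (mean correlation 0.26), SN-011 samples less so (0.05). There the block called Ifnar2 between stomach and muscle (-0.82, adjusted p = 0.0326) and changed no other call of a member.

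Between control tissues, members called were 3 between heart and tongue without a filter, 5 between stomach and muscle and 7 between muscle and tongue with library size alone. They were 3 to 7 between heart and muscle, 3 to 6 between heart and tongue and 1 to 2 between stomach and tongue with a sample left out. The difference in effect between stomach and muscle was called for 1 member with DESeq2 size factors, 2 with library size alone and 1 by DESeq2, and for 0 to 2 with a sample left out.

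Values near 0 changed sign. With library size alone, SN-011 in the muscle gave Irf3 -0.027, Ifnar1 -0.12 and Jak1 -0.12, and in the tongue Ikbke 0.048 and Ifnar2 0.021. Library size alone also gave Jak1 0.23 between heart and muscle, Sting1 0.68, Ifnar1 0.72 and Ifnar2 0.025 between stomach and muscle, and Ifnar2 -0.76 between muscle and tongue. DESeq2 size factors and DESeq2 gave Sting1 0.083 and 0.081 and Ifnar1 0.10 and 0.11 between stomach and muscle, Tyk2 0.0018 and 0.0026 between stomach and tongue, and Ifnar2 -0.087 and -0.087 between muscle and tongue, where the pair alone gave -0.0076. With SN-011 samples in place of controls, Ikbke was -0.50 between heart and stomach, Tbk1 -0.37 between heart and muscle, Sting1 0.55, Tbk1 -0.31 and Ifnar2 0.76 between stomach and muscle, Sting1 0.076, Ifnar2 0.29 and Tyk2 0.042 between stomach and tongue, and Tbk1 0.41 and Ifnar2 -0.46 between muscle and tongue.

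Leaving out 1 sample turned these SN-011 values: in the heart Ikbke (-0.18 to 0.22) and Tyk2 (-0.12 to 0.042), in the stomach Sting1 (-0.22 to 0.53), Tbk1 (-0.31 to 0.042) and Ifnar1 (-0.094 to 0.34), in the muscle Sting1 (-0.93 to 0.067) and Jak1 (-0.020 to 0.29), and in the tongue Tbk1 (-0.20 to 0.042), Ikbke (-0.15 to 0.062) and Ifnar2 (-0.18 to 0.096). It also turned Tbk1 (-0.19 to 0.12) and Ikbke (-0.044 to 0.37) between heart and stomach, Tbk1 (-0.020 to 0.25) between heart and tongue, Ifnar1 (-0.32 to 0.060) and Tyk2 (-0.15 to 0.53) between stomach and muscle, Tbk1 (-0.020 to 0.30) and Tyk2 (-0.52 to 0.15) between stomach and tongue, and Ifnar2 (-0.073 to 0.19) between muscle and tongue. At this depth Ifnb1 and Cgas in the muscle were too few in counts for a difference to be seen.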
